A study of Mus musculus with 4 samples.

Results

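The cells described here are conventional CD4 T cells of mouse tumors, read by droplet single-cell RNA sequencing in a study of how disturbing S100A8/A9 in bone marrow bears on myelopoiesis and antitumor immunity. They were chosen by their own transcripts: a barcode with 200 or more genes, and with no more than 10% of its UMIs (unique molecular identifiers, counted RNA molecules) mitochondrial, was taken when it held at least 2 UMIs of Cd3d, Cd3e and Cd3g together and at least 1 of Cd4. It had to hold no UMI of Foxp3, Cd8a or Cd8b1, fewer than 3 of the cycling genes Mki67 and Top2a, and fewer than 3 of the interferon genes Ifit1, Ifit3 and Rsad2. The rule found 1767 cells among 23034 filtered tumor barcodes, out of 41851 filtered barcodes in the whole series. Of these cells, 394 were in the KO tumor library and 1373 in the WT tumor library.

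KO mice carried the genotype S100a8fl/fl Vav-Cre+/-, in which Cre, driven by Vav in blood-forming cells, deletes floxed S100a8 from the hematopoietic system. WT mice were S100a8fl/fl Vav-Cre-/-, so both groups carried the floxed allele and the WT mice had no Cre. Tumors were grown from LLC, a mouse Lewis lung carcinoma line, no treatment is labelled, and leukocytes were sorted by CD45. Each genotype is 1 tumor library pooled from 3 mice, whose age is not given in the sources used here. There is therefore no replicate and no test. The 95% intervals given hold counting error alone, and a gene counts as higher or lower here when its level differs by at least 1.5-fold.

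CD4 T cells recognise peptides on MHC class II and help other cells through secreted cytokines and surface ligands. Helper cells are grouped by what they secrete: Th1 cells make interferon gamma, Th2 cells interleukins 4, 5 and 13, and Th17 cells interleukin 17. Naive and recirculating T cells keep Il7r, Ccr7, S1pr1 and the factors Klf2, Tcf7 and Lef1, whereas tissue-resident cells raise Cd69, which retains them. Calprotectin, a pair of calcium-binding proteins abundant in neutrophils, is made from S100a8 and S100a9.

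The targeted transcript S100a8 was at 0 UMIs in KO CD4 T cells and at 350 UMIs in WT CD4 T cells, where 27 of 1373 cells carried all of them. Against a floor of 3 UMIs over the KO cells, it was at least 37.6-fold lower in KO. Barcodes with no CD3 UMI held 0.992 CPM of S100a8 in the KO library and 244 in the WT library. S100a9, its partner, stood at 1098 CPM (UMIs of a gene scaled to 1e6 UMIs of the class) in KO cells, against 54.6 CPM in WT cells. The same barcodes without CD3 held 7769 CPM of S100a9 in KO and 485 in WT. In the cells with little RNA of other cells, defined below, S100a9 stood at 124 CPM in KO and 3.02 in WT. The part that RNA from other cells has in these S100a9 values was not tested.

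Interferon-stimulated genes are among those that separate the KO from the WT cells below, and 3 of their promoters are shown for the sequence through which they are known to be induced. Each line gives the 100 bases before the gene's start, 5′ to 3′ on the gene's strand, from RefSeq on GRCm38.p6, and the capitals mark GAAA, any 2 bases and GAAA again, on either strand, the core of the interferon-stimulated response element.
Ifi208, chr1:173673565-173673664, plus strand: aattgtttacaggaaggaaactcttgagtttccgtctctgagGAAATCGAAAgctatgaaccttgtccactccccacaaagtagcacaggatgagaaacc
Isg15, chr4:156200819-156200918, minus strand: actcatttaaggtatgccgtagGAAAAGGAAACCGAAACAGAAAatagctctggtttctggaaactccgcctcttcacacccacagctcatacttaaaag
Gbp3, chr3:142559944-142560043, plus strand: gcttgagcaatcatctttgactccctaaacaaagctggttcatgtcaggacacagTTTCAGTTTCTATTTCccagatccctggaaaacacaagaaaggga
The Ifi208 window holds 1 match, starting 58 bases before the start, Isg15 holds 3 overlapping matches and Gbp3 holds 2. A match describes the letters of a window and not a bound site.

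Conventional CD4 T cells made up a smaller share of the KO tumor. They were 394 of 11413 filtered barcodes in the KO library, or 3.45% (3.12 to 3.80, exact binomial), against 1373 of 11621 in the WT library, or 11.8% (11.2 to 12.4). The share was 3.42-fold lower in KO (3.07 to 3.82). The difference was smaller among T cells: of the barcodes with at least 2 CD3 UMIs, the cells were 19.5% in KO (394 of 2017; 17.8 to 21.3) and 25.2% in WT (1373 of 5449; 24.05 to 26.4), which is 1.29-fold lower in KO (1.17 to 1.43). Regulatory T cells, taken by the same rule but with Foxp3 present, numbered 108 in KO and 306 in WT. CD8 T cells, with at least 2 UMIs of Cd8a and Cd8b1 and none of Cd4, numbered 711 in KO and 1002 in WT. There were 3.65 conventional cells per regulatory cell in KO and 4.49 in WT, and 0.554 per CD8 T cell in KO against 1.37 in WT. The ratio to CD8 T cells thus moved past the 1.5-fold size and the ratio to regulatory cells did not. These are shares of sorted barcodes, so fewer CD4 T cells and more of the other leukocytes cannot be told apart. In bone marrow of tumor-free mice the same rule found 12 of 10853 barcodes in KO and 14 of 7964 in WT.

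**Figure D1:**
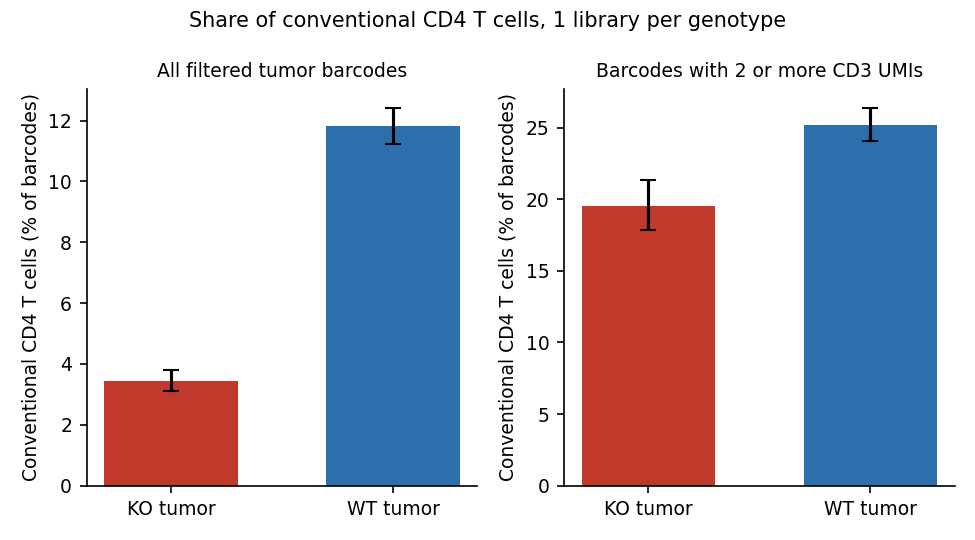
Share of conventional CD4 T cells (%, bars from 0, with 95% exact binomial intervals) among all filtered tumor barcodes (left panel) and among barcodes with at least 2 CD3 UMIs (right panel), in 1 KO and 1 WT tumor library. The KO bar is 3.45% against 11.8% in the left panel and 19.5% against 25.2% in the right panel.

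Many cells sat at the edge of the rule. Exactly 1 Cd4 UMI was seen in 159 KO and 649 WT members, while 324 KO and 1280 WT barcodes met every other criterion with no Cd4 UMI. Exactly 1 Foxp3 UMI kept out 27 KO and 104 WT barcodes, and exactly 1 Cd8a or Cd8b1 UMI kept out 23 and 91. The interferon limit kept out 2 KO and 44 WT barcodes with 3 UMIs of Ifit1, Ifit3 and Rsad2, next to 9 KO and 69 WT members with 2. Members had a median of 6268 UMIs and 1963 genes in KO, and 5570 UMIs and 1870 genes in WT, with medians of 1.49% and 1.42% mitochondrial UMIs. The libraries held 111214201 UMIs over 11836 KO barcodes and 102548178 UMIs over 12027 WT barcodes. They shared 33 barcode sequences, none of them among the cells described.

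Markers outside the rule included those of CD4 T cells. Trac, the constant region of the T cell receptor alpha chain, stood at 503 CPM in KO and 727 in WT, and Trbc2, of the beta chain, at 1040 CPM in KO and 1453 in WT. Cd40lg, the ligand by which helper cells activate B and dendritic cells, stood at 43.3 CPM in KO and 24.1 in WT members, and at 0.291 CPM in KO and 0.727 in WT CD8 T cells. Trdc, of the delta chain, was at 6 UMIs in KO and 119 in WT. All 5 mast cell markers and all 4 erythroid markers were at 0 in KO, and summed to 0.643 CPM and 4.41 CPM in WT. Of the 9 B and plasma cell markers 7 were at 0 in KO and none in WT. Regulatory T markers (7 genes) summed to 754 CPM in KO and 689 in WT, and were present in 92.6% of KO and 82.4% of WT members. Only 218 of 394 KO and 727 of 1373 WT members had no UMI of Il2ra or Ikzf2. A cell with no Foxp3 UMI may still express Foxp3, and how many members are regulatory T cells was not tested.

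Marker transcripts of other leukocytes were present in part of these barcodes. Markers of neutrophils (8 genes, all seen) summed to 6824 CPM in KO and 1353 in WT members, and were present in 369 KO cells (93.7%) and 407 WT cells (29.6%). A KO cell held a median of 560 CPM of them and at most 77536 CPM, while a WT cell held a median of 0 and at most 59927 CPM. The 14 macrophage and monocyte markers summed to 6230 CPM in KO and 3953 in WT, and the 10 dendritic cell markers to 4283 CPM in KO and 12536 in WT. NK markers summed to 1032 CPM in KO and 1115 in WT, B cell and plasma cell markers to 31.0 CPM and 92.5 CPM, and carcinoma and stroma markers to 85.4 CPM and 28.7 CPM. In 94 KO cells (23.9%) and 305 WT cells (22.2%), the marker lists of other cells took more than 1% of the UMIs. Those cells were deep, with medians of 15991 UMIs in KO and 15533 in WT, and a doublet caller marked 83 of the 94 and 287 of the 305. In all it marked 86 KO and 389 WT members. Over all filtered barcodes it marked 8.87% in KO and 28.4% in WT, where 9.47% and 9.62% were expected, so removing its calls treats the libraries unequally. Because of the other-cell transcripts, the main results below are set beside the same value in the remaining 300 KO and 1068 WT cells, called cells with little other-cell RNA. In these the neutrophil sum was 554 CPM in KO and 53.7 in WT, the macrophage sum 321 CPM and 202 CPM, and the dendritic sum 313 CPM and 519 CPM.

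With 50 or more UMIs over the libraries together, 9416 genes were measured, of which 835 (8.87%) were at least 1.5-fold higher in KO and 975 (10.4%) at least 1.5-fold lower. In the cells with little other-cell RNA, 530 of 7946 genes (6.67%) were higher and 769 (9.68%) lower. The median log2 ratio, KO over WT, was -0.08 over all measured genes and -0.07 in the cells with little other-cell RNA. The counts of gene lists below are read against these shares. Taken by size alone, the largest ratios belonged to myeloid genes. Slpi, a protease inhibitor of neutrophils and epithelia, stood at 809 CPM in KO and 48.5 in WT, Cxcl1, a neutrophil chemokine, at 461 and 36.5 CPM, and Arg1, arginase of suppressive myeloid cells, at 186 and 19.4 CPM. Among the 12 lowest ratios under that rule were dendritic cell genes: Ccl17, a chemokine, stood at 6.55 CPM in KO and 62.7 in WT, and H2-Ab1, an MHC class II chain, at 790 and 2512 CPM. These genes move with the marker sums just given, and how much of their difference lies in the T cells was not tested. In the cells with little other-cell RNA, H2-Ab1 was 1.68-fold lower and Pf4, a chemokine of platelets and macrophages, 2.14-fold higher, against 3.18-fold and 7.78-fold over all cells. Those cells were chosen for few marker UMIs of other cells, so a change in the ratios of such genes is in part fixed by the choice. The account that follows turns on genes with a level at least 2 times that in barcodes without CD3, and on the lists of T cell genes. Of the 136 such genes that also had 50 CPM in either library and a counting interval of the ratio leaving out 1, 15 were higher and 21 lower in KO; the interval chose them, so these counts support nothing.

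**Figure D2:**
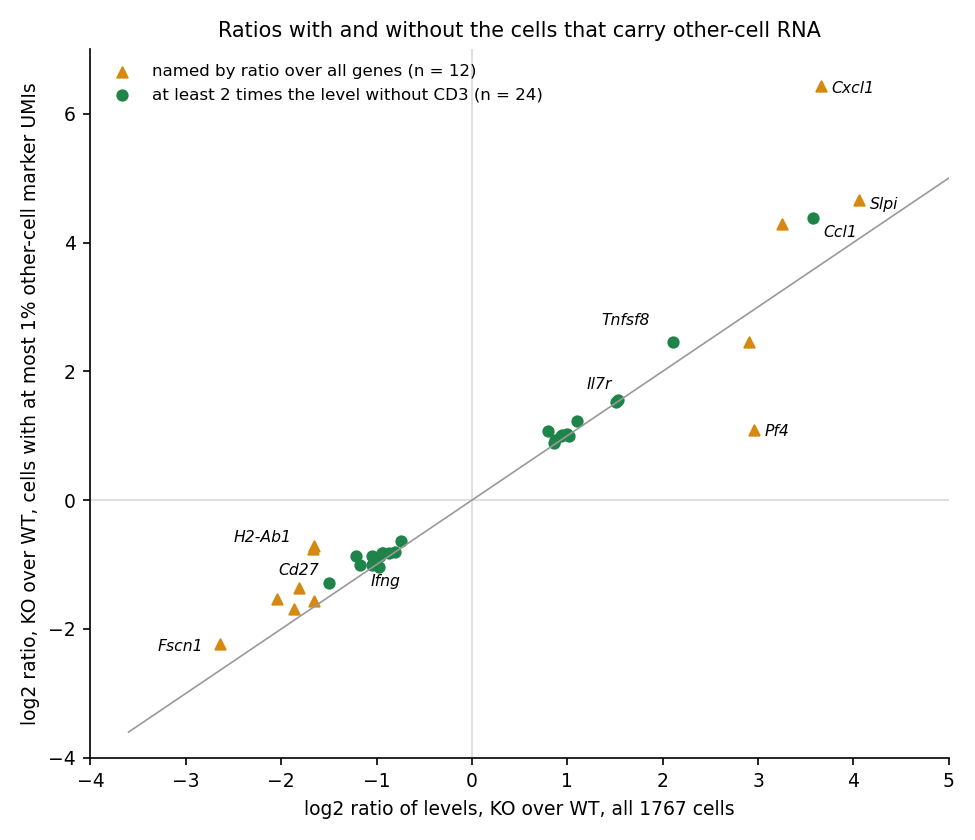
Log2 ratio of levels, KO over WT, over all 1767 cells (x axis) and over the cells with at most 1% other-cell marker UMIs (y axis), for genes named by ratio over all genes (triangles, 12 with at least 50 UMIs in both sets) and genes at least 2 times above barcodes without CD3 (circles, 24); the line marks equal values. The circles, Tnfsf8, Il7r, Cd27 and Ifng among them, lie near the line, while Cxcl1, Pf4 and H2-Ab1 lie off it. The cells of the y axis were chosen by marker UMIs of other cells, which in part fixes the shift of such genes.

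The ligand genes Tnfsf8, Tnfsf11 and Cd40lg, of the tumor necrosis factor family, were higher in KO, while Fasl, the death ligand of that family, stood at 55.0 CPM in KO and 81.4 in WT. Tnfsf8 (CD30 ligand, chromosome 4:63831308-63861347, minus strand) stood at 247 CPM in KO and 57.6 in WT cells, 4.3-fold higher in KO (3.87 to 4.77). Tnfsf8 was 5.50-fold higher in the cells with little other-cell RNA. A UMI of it was found in 185 KO cells (47.0%), against 177 WT cells (12.9%). The other T cells had little: regulatory T cells held 10.0 CPM in KO and 3.70 in WT, and CD8 T cells 5.96 and 4.97 CPM. Barcodes without CD3 held 1.09 CPM in KO and 3.47 in WT. The difference was spread over cells: the top 20 cells held 33.4% of its UMIs in KO and 46.4% in WT, and without the top cell of each library the ratio was 4.37.

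Tnfsf11 (RANK ligand, chromosome 14:78277445-78308043, minus strand), which acts on osteoclast precursors and dendritic cells, stood at 263 CPM in KO and 91.3 in WT, 2.88-fold higher (2.63 to 3.16). A UMI of Tnfsf11 was found in 197 of 394 KO cells and 342 WT cells (24.9%). Cd40lg was 1.79-fold higher (1.46 to 2.20), with UMIs in 105 KO cells (26.6%) and 211 WT cells (15.4%). Tnfsf8 and Tnfsf11 went together in many cells: 118 of 185 Tnfsf8 cells in KO (63.8%) and 98 of 177 in WT (55.4%) also held a Tnfsf11 UMI. Deep cells hold more of every gene, so such overlaps are a description.

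Receptors for costimulation went the other way or stayed near each other. Cd27, a receptor lost on terminal differentiation (chromosome 6:125232622-125237010, minus strand), stood at 37.9 CPM in KO and 107 in WT, 2.83-fold lower in KO (2.36 to 3.41). Cd27 was found in 76 KO cells (19.3%) and 591 WT cells (43.0%). Cd226, an activating receptor for nectin-like ligands, stood at 35.6 CPM in KO and 65.1 in WT, 1.83-fold lower. With little other-cell RNA they were 2.44-fold and 1.76-fold lower. Icos, which sustains helper cells, stood at 648 CPM in KO and 745 in WT, and Tnfrsf4 (OX40) at 421 and 442 CPM, all within 1.5-fold. Of the 15 measured genes of the costimulation and help list, 4 were higher and 5 lower, and in the cells with little other-cell RNA 3 of 14 were higher and 4 lower.

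**Figure D3:**
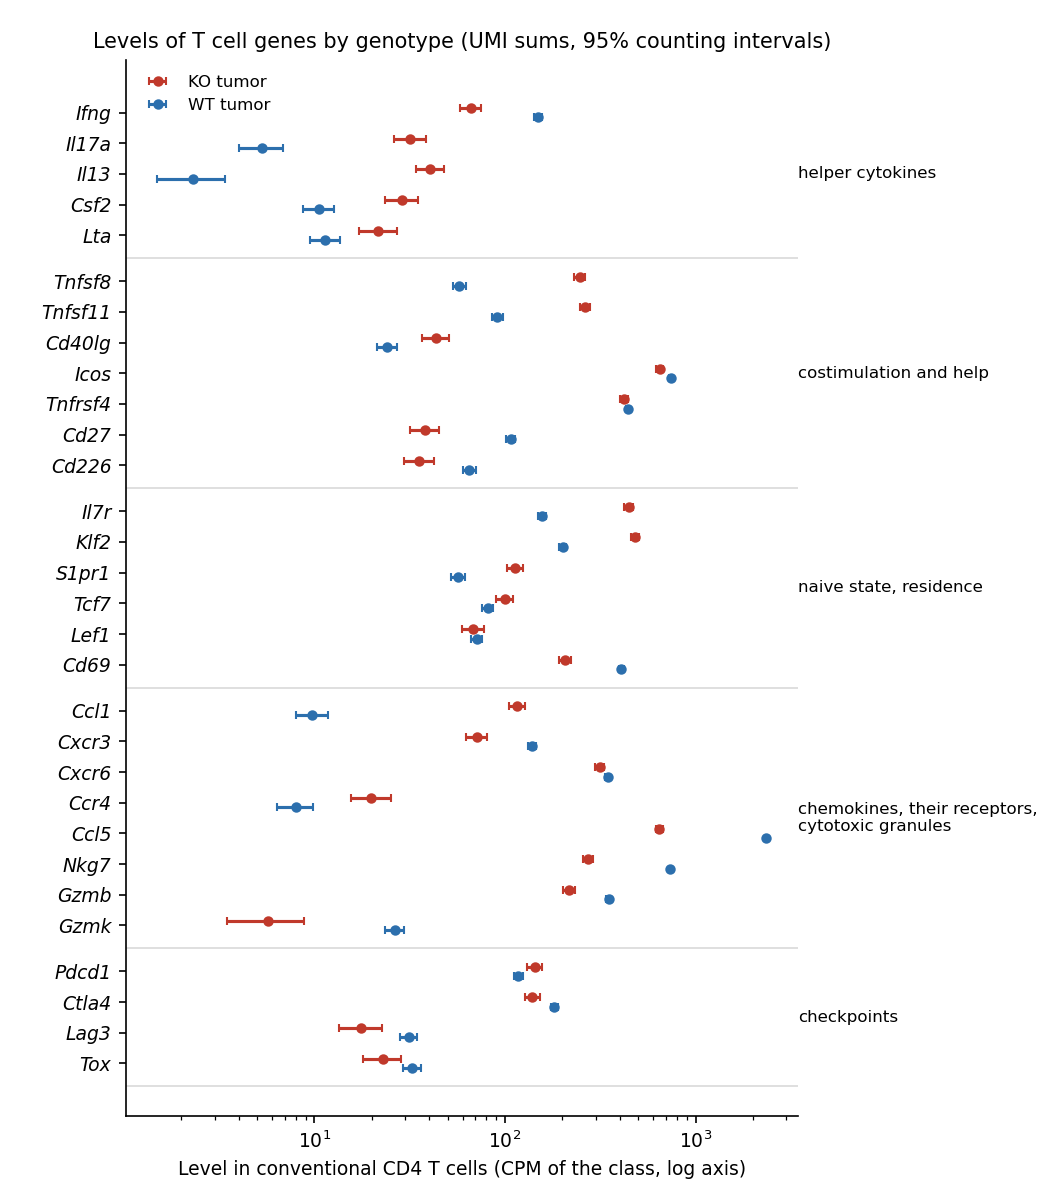
Levels of T cell genes in conventional CD4 T cells (CPM of the class, log axis) in the KO tumor (red) and the WT tumor (blue), with 95% Poisson intervals, grouped by role. Ligands Tnfsf8 and Tnfsf11 and the genes Il7r, Klf2 and S1pr1 lie to the right in KO, and Ifng, Cd27, Cd69, Cxcr3, Ccl5 and Nkg7 to the left.

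Genes of naive and recirculating T cells were partly higher in KO, and the residence marker Cd69 was lower. Il7r (receptor for the survival cytokine interleukin 7, chromosome 15:9505788-9530176, minus strand) stood at 446 CPM in KO and 157 in WT, 2.84-fold higher (2.65 to 3.05). Klf2, the factor that drives S1pr1, stood at 482 CPM in KO and 201 in WT, 2.40-fold higher (2.25 to 2.56). S1pr1, the receptor by which T cells leave tissue, stood at 113 CPM in KO and 56.7 in WT, 2.00-fold higher (1.76 to 2.27). With little other-cell RNA the ratios of these 3 genes were 2.88, 2.53 and 2.04. Cd69 stood at 208 CPM in KO and 407 in WT, 1.96-fold lower in KO (1.81 to 2.12), and 2.05-fold lower with little other-cell RNA.

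Il7r and Klf2 were not restricted to T cells. Barcodes without CD3 held 205 CPM of Il7r in KO and 64.4 CPM in WT, and 489 CPM of Klf2 in KO and 223 CPM in WT, so they differed there too. S1pr1 was close to absent from them, at 3.07 CPM in KO and 3.84 in WT. Il7r also stood at 482 CPM in KO and 245 in WT regulatory T cells, and at 281 CPM in KO and 93.3 in WT CD8 T cells. Klf2 stood at 389 CPM in KO and 234 in WT regulatory T cells, and at 271 and 171 CPM in CD8 T cells. For S1pr1 the levels were 52.3 and 32.3 CPM in regulatory T cells, and 61.3 and 39.6 CPM in CD8 T cells. The higher levels of these genes were thus not particular to conventional CD4 T cells. Tcf7 and Lef1, factors of the naive state, differed by less than 1.5-fold: Tcf7 stood at 99.7 CPM in KO and 81.4 in WT, and Lef1 at 68.0 and 71.0 CPM. Ccr7, which guides cells into lymph nodes and also marks migrating dendritic cells, stood at 242 CPM in KO and 261 in WT, but at 325 CPM in KO and 205 in WT with little other-cell RNA, 1.59-fold higher there. Of 12 measured genes of the list, 4 were higher and none lower, and with little other-cell RNA 6 were higher and none lower. The fourth higher gene, Igfbp4, rested on 15 KO cells, 1 of which held 120 of its 203 UMIs. Its direction reversed when members with Il2ra or Ikzf2 were left out.

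**Figure D4:**
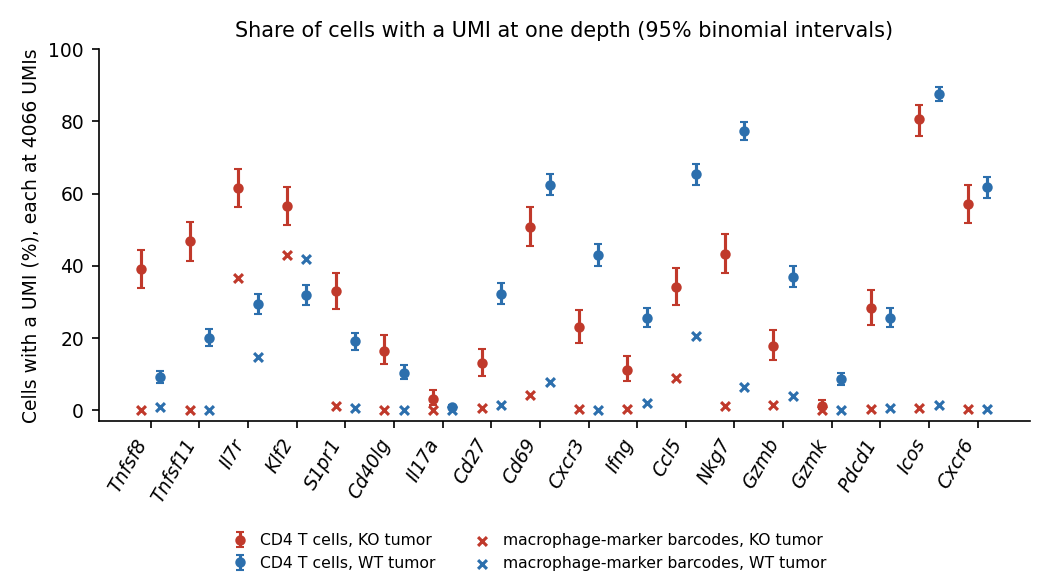
Share of conventional CD4 T cells with at least 1 UMI of each gene (circles, %, with 95% exact binomial intervals) after every cell was thinned to 4066 UMIs, in KO (red) and WT (blue); crosses show macrophage-marker barcodes thinned to the same depth. Tnfsf8 was found in 39.0% of KO and 9.10% of WT cells and Nkg7 in 43.4% and 77.4%, and among these genes Il7r, Klf2 and Ccl5 had the highest shares in macrophage-marker barcodes.

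Shares of cells followed the levels at equal depth. Thinning to 4066 UMIs kept 346 KO and 1099 WT cells and left out 48 and 274 shallower ones. Tnfsf11 was then found in 46.8% of KO and 20.1% of WT cells, S1pr1 in 32.9% and 19.1%, and Cd40lg in 16.5% and 10.5%. Cd27 was found in 13.01% of KO and 32.3% of WT cells, Cxcr3 in 23.1% and 43.0%, and Cd69 in 50.9% and 62.5%. Macrophage-marker barcodes, which should lack these genes, had a Tnfsf8 UMI in 0.176% of KO and 0.916% of WT barcodes. Il7r, Klf2 and Ccl5 are exceptions. Ccl5 was found in 34.1% of KO and 65.3% of WT CD4 T cells, and in 8.89% of KO and 20.6% of WT macrophage-marker barcodes. Il7r was found in 61.6% of KO and 29.4% of WT CD4 T cells, but also in 36.7% of KO and 14.8% of WT macrophage-marker barcodes. For Klf2 the macrophage-marker shares were 43.1% in KO and 42.0% in WT, beside 56.6% of KO and 31.9% of WT CD4 T cells. The part that other-cell RNA has in the detection of Klf2 in CD4 T cells was not tested.

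Interferon gamma and some other Th1 genes were lower in KO. Ifng (interferon gamma, chromosome 10:118441046-118445892, plus strand) stood at 66.1 CPM in KO and 149 in WT, 2.25-fold lower in KO (1.96 to 2.59), and 2.01-fold lower with little other-cell RNA. Ifng was found in 59 KO cells (15.0%) and 446 WT cells (32.5%), and 1 KO cell held 56 of the 232 KO UMIs. Without the top cell of each library its levels were 50.3 CPM in KO and 143 in WT. The summed Ifng level was not lower in all members, but the share of cells with an Ifng UMI was lower in KO in both parts of a split. In cells with at least 2 UMIs of Ccr7 and Lef1, a split chosen after the values were seen, Ifng stood at 134 CPM in KO (106 cells) and 84.0 in WT (306 cells), and at 82.2 and 75.1 CPM without the top cell of each library. There 18 of the 106 KO cells and 95 of the 306 WT cells held an Ifng UMI. The KO level there rested on few cells: 1 held 56 of 143 UMIs, and the next held 26. In the remaining cells Ifng stood at 36.5 CPM in KO (288 cells) and 177 in WT (1067 cells), a ratio of 0.205 (0.164 to 0.255). Of these, 41 KO and 351 WT cells held an Ifng UMI. Cxcr3, the receptor for interferon-induced chemokines, stood at 71.2 CPM in KO and 138 in WT, 1.94-fold lower (1.70 to 2.23). Ccl5, a chemokine of effector T cells, stood at 645 CPM in KO and 2356 in WT, 3.65-fold lower (3.50 to 3.81). Macrophage-marker barcodes also held it less often in KO, as given above.

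Tbx21, which encodes the Th1 factor T-bet, stood at 13.7 CPM in KO and 19.4 in WT, short of 1.5-fold. Eomes, its relative in cytotoxic cells, was at 1 UMI in KO and 69 UMIs in WT. Of the 13 Th1 genes measured, 4 were lower and none higher, and 4 of 11 were lower with little other-cell RNA, beside 10.4% and 9.68% of all genes. The 4 over all cells were Cxcr3, Ifng, Ccl5 and Eomes, while Stat4, Il18r1 and Il12rb2, which relay or receive Th1 signals, differed by less than 1.5-fold. In CD8 T cells Ifng stood at 135 CPM in KO and 116 in WT, and in regulatory T cells at 28.7 CPM in KO and 34.7 in WT. Cells with Ifng overlapped with Ccl5 in 30 of 59 cases in KO (50.8%) and 351 of 446 in WT (78.7%), and with Gzmk in 1 and 81 cells.

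Th2 and Th17 cytokine genes were higher in KO but came from a handful of cells. Il13, a type 2 effector cytokine, stood at 40.4 CPM in KO and 2.30 in WT, 17.6-fold higher (11.5 to 28.1), yet it was found in 6 KO and 4 WT cells. A lone KO cell held 103 of its 142 KO UMIs, and all 56 KO UMIs of Il5 lay in 1 cell, with none in WT. Without the top cell of each library, Il13 stood at 11.1 CPM in KO and 0.828 in WT. Il4, which defines Th2 cells, was at 2 UMIs in KO and 0 in WT. Members of the list with a broader base were Ccr4, a skin and type 2 homing receptor, at 19.9 CPM in KO and 7.99 in WT (50 and 68 cells), and Il1rl1, the interleukin 33 receptor, at 20.2 and 7.62 CPM (27 and 59 cells). Ccr4 was 2.50-fold higher in KO (1.80 to 3.46) and Il1rl1 2.65-fold higher (1.90 to 3.69). Gata3, the factor of Th2 cells that is also used by other T cells, stood at 99.1 CPM in KO and 74.5 in WT, short of 1.5-fold. Of 8 measured Th2 genes, 5 were higher and none lower, as were 5 of 7 with little other-cell RNA.

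Il17a (chromosome 1:20730905-20734496, plus strand) stood at 31.9 CPM in KO and 5.32 in WT, 5.99-fold higher (4.32 to 8.37). It was found in 15 KO cells (3.81%) and 15 WT cells (1.09%), and 1 KO cell held 51 of the 112 KO UMIs. Without the top cell of each library it was 4.21-fold higher. At equal depth 3.18% of KO and 0.819% of WT cells held it. Ccr6, the homing receptor of Th17 cells, stood at 8.54 CPM in KO and 1.93 in WT, on 30 and 21 UMIs, and Il1r1, the interleukin 1 receptor, at 8.54 and 1.84 CPM, on 30 and 20. Of the 8 measured Th17 genes, 3 were higher and none lower, and 3 of 6 with little other-cell RNA. Csf2 (GM-CSF), a helper cytokine that acts on myeloid cells, stood at 28.8 CPM in KO and 10.6 in WT, 2.72-fold higher (2.06 to 3.59), in 24 and 18 cells. No KO cell and 2 WT cells held both Ifng and Il17a.

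Ccl1 (chromosome 11:82176657-82305690, minus strand), a chemokine whose receptor Ccr8 is found on Th2 and regulatory T cells, had the highest ratio of those 136 genes. It stood at 116 CPM in KO and 9.73 in WT, 11.9-fold higher (9.62 to 14.9), in 18 KO and 21 WT cells. Here 1 KO cell held 278 of 408 UMIs, and without the top cell of each library Ccl1 stood at 37.1 CPM in KO and 6.25 in WT, 5.93-fold higher (4.39 to 8.08). Most Ccl1 cells also held Gata3, 15 of 18 in KO and 14 of 21 in WT.

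Most measured cytotoxic genes were lower in KO. Nkg7, a granule protein of killer lymphocytes, stood at 274 CPM in KO and 739 in WT, 2.70-fold lower in KO (2.53 to 2.89). Gzmk, granzyme K of effector-memory cells, stood at 5.69 CPM in KO and 26.3 in WT, 4.63-fold lower (2.94 to 7.69), with 6 KO cells (1.52%) and 188 WT cells (13.7%). Prf1, which encodes perforin, stood at 3.99 CPM in KO and 41.4 in WT, 10.4-fold lower (6.13 to 19.2), on 14 KO UMIs. Gzma stood at 38.4 CPM in KO and 213 in WT, 5.55-fold lower, but with a ratio of 0.718 once marked doublets were removed. Gzmb stood at 217 CPM in KO and 350 in WT, 1.62-fold lower (1.49 to 1.75), and 1.49-fold lower with little other-cell RNA; it passed 1.5-fold in 6 of 13 alternative settings. Of 13 measured genes, 8 were lower and 2 higher, and with little other-cell RNA 8 were lower and none higher. The 2 higher were Ccl3 and Ccl4, chemokines that myeloid cells make too: Ccl3 stood at 496 CPM in KO and 76.5 in WT, against 2360.5 CPM in KO and 196 in WT barcodes without CD3. Granzymes have near-identical copies between which the counting could have split reads. The list's median log2 ratio was -1.01, and -1.30 with little other-cell RNA.

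NK cells also express such genes. Of the 8 NK markers, 7 were lower in KO members and the median log2 ratio was -2.32, but 0.33 after removal of marked doublets. Their sums were given above, and in the cells with little other-cell RNA were 137 CPM in KO and 352 in WT. The part of NK cell RNA in the lower cytotoxic genes was not tested. Nkg7, Ccl5 and Gzmk were at least 1.5-fold lower in KO under all 13 alternative settings tried, none of which was a test of that part. They were lower in other T cells too. In regulatory T cells Nkg7 stood at 171 CPM in KO and 496 in WT, and Ccl5 at 470 and 1243 CPM. In CD8 T cells Gzmk stood at 67.0 CPM in KO and 186 in WT. Nkg7 (1538 and 2072 CPM) and Ccl5 (6003 and 7309 CPM) differed by less than 1.5-fold in CD8 T cells.

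Interferon-stimulated genes were far more often lower than higher in KO. The rule itself kept out cells with 3 or more UMIs of Ifit1, Ifit3 and Rsad2, so the levels describe cells below that limit. Of 50 measured type I interferon genes, 23 (46.0%) were lower and 1 higher, and with little other-cell RNA 16 of 44 were lower and 1 higher. Ifi208, of the interferon-induced DNA-sensing family, stood at 5.98 CPM in KO and 26.9 in WT, 4.50-fold lower (2.89 to 7.38). Ifi208 was found in 17 KO cells (4.31%) and 240 WT cells (17.5%), and was 5.77-fold lower with little other-cell RNA. Isg15, a ubiquitin-like modifier, stood at 146 CPM in KO and 274 in WT, a log2 ratio of -0.90, and -1.43 with little other-cell RNA. Barcodes without CD3 held 516 CPM of Isg15 in KO and 460 in WT, but Ifi208 was lower there too, at 0.222 CPM in KO and 9.54 in WT. The lower level of Ifi208 was thus not particular to the CD4 T cells. Usp18, which removes Isg15 from proteins, stood at 2.85 CPM in KO and 8.63 in WT, 3.03-fold lower, on 10 and 94 UMIs. Ifi204 was the 1 higher gene, with a log2 ratio of 0.75, and 0.30 with little other-cell RNA. The Ifi200 genes are similar in sequence, and the counting can have split their reads.

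Genes of the interferon gamma response and class I presentation were lower in 10 of 32 cases and higher in none, and in 13 of 32 with little other-cell RNA. Psmb9 and Psmb10, subunits of the immunoproteasome that cuts peptides for MHC class I, stood at 171 and 136 CPM in KO, against 321 and 238 CPM in WT. They were 1.88-fold and 1.75-fold lower in KO. Gbp3, an interferon-induced GTPase, stood at 24.5 CPM in KO and 47.6 in WT, 1.95-fold lower (1.55 to 2.47), and 3.24-fold lower with little other-cell RNA. Barcodes without CD3 also had less of these 3 genes in KO: Psmb9 stood at 137 CPM in KO and 276 in WT there, Psmb10 at 123 and 269.8 CPM, and Gbp3 at 29.5 and 48.1 CPM. Both interferon lists had a median log2 ratio of -0.51. The class I light chain B2m was within 1.5-fold, with a log2 ratio of -0.20. The promoter motif shown above, GAAA followed by any 2 bases and GAAA, searched on both strands with overlaps counted in the 250 bases before the start, is in 936 of 27025 genes (3.46%). It is in 17 of 42 matched type I interferon genes (40.5%) and in 8 of the 19 matched ones that were lower (42.1%). In the second list it is in 11 of 25 matched genes (44.0%) and in 2 of the 9 lower ones (22.2%). The shares of the lower genes are a description, with no test.

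**Figure D5:**
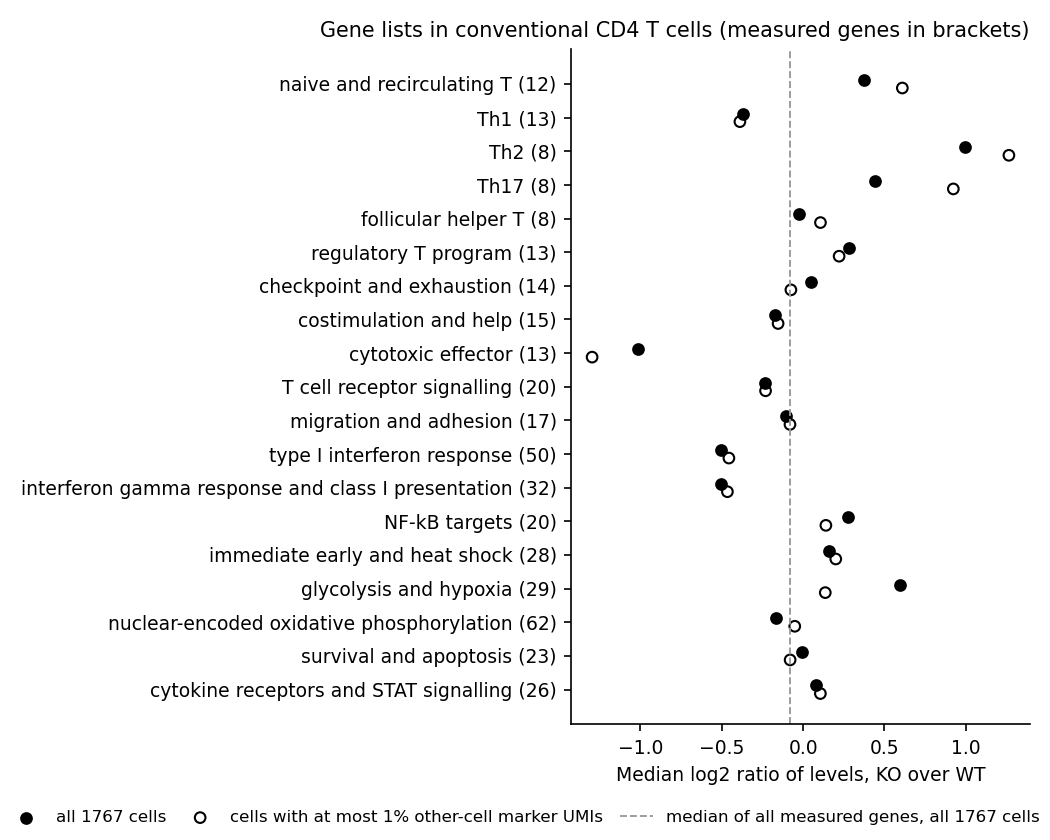
Median log2 ratio of levels, KO over WT, of gene lists in conventional CD4 T cells, over all 1767 cells (filled) and over cells with at most 1% other-cell marker UMIs (open), with the number of measured genes in brackets; the dashed line is the median of all measured genes, -0.08. The cytotoxic, Th1 and both interferon lists lie to its left, the Th2, Th17 and naive lists to its right, and the glycolysis and hypoxia list moves from 0.59 to 0.14 between the filled and the open circle.

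None of 20 measured genes of T cell receptor signalling passed 1.5-fold, and the median log2 ratio was -0.23. Checkpoint genes differed one from another. Pdcd1 (PD-1) stood at 143 CPM in KO and 117 in WT, Ctla4 at 139 and 182 CPM, and Havcr2 (TIM-3) at 16.8 and 16.9 CPM. Lag3, a checkpoint receptor that binds MHC class II, stood at 17.7 CPM in KO and 31.2 in WT, 1.77-fold lower (1.35 to 2.36), but with a ratio of 0.983 once members with Il2ra or Ikzf2 were left out. Of 14 checkpoint genes 2 were higher, Entpd1 and Cd200, and 1 was lower, but with little other-cell RNA 1 of 13 was higher and 3 were lower. Over all cells these are 14.3% and 7.14%, beside 8.87% and 10.4% of all genes. With little other-cell RNA they are 7.69% and 23.1%, beside 6.67% and 9.68%. Entpd1, which encodes CD39 and is also made by macrophages, stood at 64.6 CPM in KO and 26.1 in WT, but had a log2 ratio of -0.14 with little other-cell RNA. Nt5e, which encodes CD73, the next enzyme of extracellular adenosine production, stood at 68.9 CPM in KO and 35.9 in WT, 1.92-fold higher (1.63 to 2.26), in 141 KO cells (35.8%) and 254 WT cells (18.5%). Ikzf2, the factor Helios of regulatory and activated T cells, stood at 65.8 CPM in KO and 125 in WT, 1.91-fold lower.

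Receptors for movement and cytokines are described one by one. Of 17 migration genes 2 were higher and 2 lower, and with little other-cell RNA 3 and 4. Over all cells this is 11.8% each way, near the 8.87% and 10.4% of all genes, so the counts are no result about the list. The migration genes past 1.5-fold over all cells, besides S1pr1 and Cxcr3, were Cxcr4, the receptor for Cxcl12, at 110 CPM in KO and 70.6 in WT, and Itga4, an integrin chain for vessel entry, at 92.0 CPM in KO and 181 in WT. Cxcr6, a receptor of tumor-resident T cells, stood at 313 CPM in KO and 346 in WT. Of 26 cytokine receptor and STAT genes 2 (7.69%) were higher and none lower, also with little other-cell RNA. The share of higher genes is near the 8.87% of all genes. One of the 2 higher genes was Tgfbr1, a TGF-beta receptor chain, at 29.9 CPM in KO and 8.997 in WT, 3.32-fold higher (2.50 to 4.42), in 84 KO cells (21.3%) and 89 WT cells (6.48%). With little other-cell RNA Tgfbr1 was 5.05-fold higher.

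Further genes well above the barcodes without CD3 were higher in KO: Tmem64 (2.15-fold), Ttc39c (2.02-fold), Cpm (1.91-fold), Nmrk1 (1.83-fold), Odc1 (1.82-fold) and Ramp3 (1.73-fold). Odc1, the first enzyme of polyamine synthesis, stood at 2082 CPM in KO and 1145 in WT, in 94.2% and 88.3% of cells. Ramp3, which modifies calcitonin-family receptors, stood at 440 CPM in KO and 254 in WT. Lower in KO were Rpa2 (2.32-fold), a DNA-binding subunit of replication protein A, Gimap7 (2.06-fold) and Gimap9 (1.74-fold), GTPases of lymphocyte survival, Ptprcap (2.06-fold), a partner of CD45, Gstp3 (1.93-fold) and Il16 (1.67-fold). Gimap and Gstp genes have close relatives whose reads the counting could have split.

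The glycolysis list differed between all cells and those with little other-cell RNA. Of 29 glycolysis and hypoxia genes, 15 were higher in KO over all cells, but 4 with little other-cell RNA, where the median log2 ratio was 0.14 in place of 0.59. Slc2a1, the glucose transporter GLUT1, stood at 92.2 CPM in KO and 32.0 in WT, and at 26.4 and 19.1 CPM with little other-cell RNA. Of 62 nuclear-encoded oxidative phosphorylation genes 1 was lower and none higher, and with little other-cell RNA 2 and none. Immediate early and heat shock genes were higher in 6 of 28 cases and lower in 1, and with little other-cell RNA in 9 and 2. Jun, a subunit of AP-1, stood at 380 CPM in KO and 203 in WT, and at 327 and 111 CPM with little other-cell RNA. Of 23 survival and apoptosis genes 1 was higher and 3 lower, and with little other-cell RNA 0 and 3: Trp53 stood at 48.4 CPM in KO and 77.9 in WT, 1.61-fold lower. Of 20 NF-kB target genes 4 were higher and none lower, and with little other-cell RNA 1 and 1. Of 8 follicular helper genes 1 was higher and 1 lower, and with little other-cell RNA 2 and 0. Of 13 regulatory T program genes 2 were higher and 2 lower, and with little other-cell RNA 4 and 2. Of 10 NKT and innate-like genes 3 were higher and 4 lower, and with little other-cell RNA 3 and 4 of 9. None of 4 sex-linked genes passed 1.5-fold over all cells, and 1 was lower with little other-cell RNA. Of the 6 other S100 genes measured, S100a1 was higher, and its direction reversed when members with Il2ra or Ikzf2 were left out. S100a6 stood at 3328 CPM in KO and 2251 in WT, short of 1.5-fold, and S100a4 at 2325 and 2205 CPM.

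Against the other T cells of the same tumors, the class stood out by helper ligands. Compared with regulatory T cells, Tnfsf8 was 24.7-fold higher in KO and 15.5-fold higher in WT, Tnfsf11 91.8-fold and 6.78-fold, and Cd40lg 30.2-fold and 6.52-fold. KO regulatory T cells held only 4 UMIs of Tnfsf11 and 2 of Cd40lg, so these KO folds are imprecise (35.7 to 338 for Tnfsf11). Tcf7 was 11.6-fold higher in KO and 5.63-fold higher in WT, and Themis, a regulator of T cell receptor signals, 8.83-fold and 9.29-fold. Lower in the class than in regulatory T cells were Lrrc32 (10.1-fold in both libraries), which holds latent TGF-beta, Klrg1 (13.1-fold in KO and 7.94-fold in WT) and Itgb8 (8.13-fold and 10.0-fold). Compared with CD8 T cells, Lgals7 was 114-fold higher in KO and 49.9-fold higher in WT, and Cd40lg 149-fold and 33.2-fold. CD8 T cells held 3 UMIs of Lgals7 in KO and 5 in WT, and 2 and 6 of Cd40lg. The KO intervals were therefore wide, 38.5 to 560 for Lgals7 and 40.5 to 1241 for Cd40lg. Cytotoxic genes such as Gzmk (11.8-fold and 7.06-fold), Crtam (56.6-fold and 20.3-fold) and Gzmf (345-fold and 35.8-fold) were lower. Here Crtam rested on 1 UMI in KO and 13 in WT members, and Gzmf on 9 and 15. Foxp3 and the CD8 genes set these classes apart by construction, so the differences describe the classes and carry no test.

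T cell receptor variable genes were seldom captured. A Trbv UMI was found in 59 KO cells (15.0%) and 196 WT cells (14.3%). The leading beta variable genes were Trbv12-2 (11 cells), Trbv2 (9) and Trbv13-2 (8) in KO, and Trbv3 (38), Trbv12-2 (33) and Trbv19 (19) in WT. A Trav UMI was found in 57 KO cells (14.5%) and 249 WT cells (18.1%). With 3 mice pooled per library, neither the mouse nor the clone of a cell is known.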

How the data were processed

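Values are UMI counts per gene and barcode, deposited by the authors as filtered matrices written by Cell Ranger 6.0.2 (tumor) and 3.1.0 (bone marrow), per the file headers. Versions listed in the submitters' processing notes are R 4.2.1, Seurat 4.3.0 and Cell Ranger 6.1.2, with mm10 and GRCm38 as builds. Counts were summed over members and scaled to CPM of the class. Shares carry exact Clopper-Pearson intervals, ratios of shares Katz intervals, levels Poisson intervals and ratios of levels exact conditional intervals, all at 95%. A count of 0 was set to 3 UMIs for a lower bound.

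The members and the 34 gene lists were chosen with earlier results of these data known. The rule for named genes takes 52 fixed genes, the 12 highest and 12 lowest ratios among genes with at least 50 UMIs, at least 50 CPM in either library, an interval that leaves out 1 and at least 0.2 of the level in barcodes without CD3, up to 4 members of each list, and 10 genes each way against each other T cell class. Because it let in myeloid genes, a floor of 2 times that level was added after the values were seen. Other list members and variable genes were chosen after their values were seen. Macrophage-marker barcodes had no CD3 UMI and at least 5 UMIs of C1qa, C1qb, C1qc and Csf1r.

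Doublets were called with scrublet in scanpy 1.11.5 and removed only as an alternative. The calls took 8.87% of KO and 28.4% of WT barcodes, where 9.47% and 9.62% were expected. The calculation of ratios and their intervals was checked on simulated counts, which is no test of the genotypes. Python 3.11.15, numpy 2.4.6, scipy 1.17.1 and pandas 2.3.3 were used. Gene positions come from GENCODE M21 (GRCm38) and promoters from RefSeq.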

Additional observations from a re-analysis of the deposited data

Results flagged for a closer look

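Some ratios, KO over WT, ran in opposite directions in conventional CD4 T cells and in another T cell class of the same libraries, each at least 1.5-fold. None of these differences between classes was tested, since each rests on 1 library per genotype. The share of all genes that did the same is not given, so how many genes are named here is no result.

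Such genes were first looked for against regulatory T cells. Il17a had a ratio of 5.99 in conventional CD4 T cells and 0.339 in regulatory T cells, where it stood at 5.02 CPM in KO and 14.8 in WT, on 7 and 44 UMIs. In conventional CD4 T cells 1 KO cell held 51 of the 112 KO UMIs of Il17a. Nmrk1, a kinase of NAD synthesis, had ratios of 1.83 and 0.391, Ikzf4 1.54 and 0.640, Lgals7 1.65 and 0.488, and Ccn4 3.62 and 0.324. Levels in regulatory T cells were low for 3 of them: Nmrk1 stood at 6.45 CPM in KO and 16.5 in WT, Lgals7 at 7.88 and 16.2, and Ccn4 at 5.02 and 15.5. The dendritic cell chemokines Ccl17 (0.104 and 2.90) and Ccl22 (0.243 and 3.17) did the same. Dendritic marker genes summed to 4283 CPM in KO and 12536 in WT conventional cells. More than 1% other-cell marker UMIs were held by 40.7% of KO and 28.8% of WT regulatory T cells, and by 23.9% and 22.2% of conventional cells. The part of other-cell RNA in Ccl17 and Ccl22 was not tested in either class.

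Others were found against CD8 T cells. Gzmb had a ratio of 0.619 in conventional CD4 T cells and 1.52 in CD8 T cells, where it stood at 1532 CPM in KO and 1009 in WT. Prf1 had ratios of 0.0963 and 1.86, Ccl1 11.9 and 0.0861, and Cpm, carboxypeptidase M, 1.91 and 0.584. In conventional CD4 T cells Prf1 rested on 14 KO UMIs, and 1 KO cell held 278 of the 408 KO UMIs of Ccl1.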

How the results depend on the processing

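No paired analysis was possible because each genotype has 1 library. The share of tumor barcodes, KO over WT, was 0.292, against 0.251 with marked doublets removed and 0.329 with at least 3 CD3 and 2 Cd4 UMIs. The share of T cell barcodes was 0.775, against 0.691 and 0.870. Counted anew over the genes measured in each setting, genes higher in KO numbered 452 to 1220 over the alternatives (835 as reported): 530 with at most 1% other-cell RNA, 452 with at most 0.2% (a limit chosen after seeing the data), 481 with the gate applied after thinning, 527 with members thinned and 1220 with at least 20 UMIs. Lower genes numbered 684 to 1376 (975 as reported). The number of genes measured differs between settings, so these counts alone do not show a change in share. As reported, 8.87% of 9416 genes were higher, and 6.67% of 7946 with at most 1% other-cell RNA. Log2 ratios reversed for few of the results: with doublets removed, the NK marker median became 0.33, Mgl2 0.38, Cd209a 1.38, Lrrc32 0.0033, Klrb1b 0.64 and Klrg1 0.35. With at most 0.2% other-cell RNA, Lrrc32 became 0.41, Klrg1 0.25 and Entpd1 -0.018, and with at most 1% Entpd1 became -0.14. With the gate after thinning, Lrrc32 became 0.16 and Klrg1 0.84. Igfbp4 became -2.02 with the stricter gate, where Klrg1 became 0.023, -0.97 without members holding Il2ra or Ikzf2, where S100a1 became -0.18, and -0.69 without the deepest 5%. The cause was not tested. Tnfsf8 ranged over ratios of 3.72 to 6.93, Tnfsf11 2.77 to 3.22, Il7r 2.71 to 3.33, Ifng 0.355 to 0.538, Cd27 0.353 to 0.552 and Ccl5 0.217 to 0.338 over 13 alternatives. Depth limits genes found in few cells, such as Il17a, Il13 and Ccr6.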
